A study of Mus musculus with 8 samples.

Results

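The genes described here are those of the Fc receptors for immunoglobulin G (IgG), namely Fcgr1, Fcgr2b, Fcgr3, Fcgr4, Fcer1g and Fcgrt. These 6 genes of the 51826 in the deposited count table were taken by their symbols in the mouse annotation GENCODE M21 (genome build GRCm38), and all 6 had enough counts to be tested.

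Fc receptors hold the constant part of an antibody and tell the cell that an antigen has been bound. Fcgr1, Fcgr3 and Fcgr4 encode activating receptors, which signal through the immunoreceptor tyrosine-based activation motif (ITAM) of the common γ chain, the product of Fcer1g. Fcgr2b encodes the inhibitory receptor of B cells and myeloid cells, which carries an inhibitory motif (ITIM), and Fcgrt encodes the neonatal Fc receptor, which pairs with β2-microglobulin and returns internalized IgG to the cell surface. In lupus, immune complexes of autoantibodies engage these receptors on macrophages, monocytes, neutrophils and B cells of organs such as the spleen.

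RNA was sequenced from total splenocytes of 8 female Balb/c mice, aged 3 months, that had not received pristane, an oil used to induce lupus in mice. From weaning on, 4 mice had received tRA (all-trans-retinoic acid, a vitamin A derivative that binds nuclear receptors) by mouth each day at 1 mg/kg, and 4 control mice the canola oil vehicle. The sample titles separate control from tRA, although the protocol text in the labels states the tRA dose for all 8 samples. The counts on genes totaled between 30919272 and 37539631 per control mouse and between 31810417 and 35165876 per tRA mouse. Levels are given as CPM, counts scaled to a common library size after TMM normalization, and fold changes are tRA over control on the log2 scale with the standard error (SE).

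The splenocyte label was met by B cell and T cell markers. The summed level of 6 B cell genes lay between 4993 and 6069.8 CPM in the control mice and between 5324 and 5531 CPM in the tRA mice, with Cd79a the most abundant. The summed level of 6 T cell genes lay between 830 and 1039 CPM in the control mice and between 990.0 and 1064 CPM in the tRA mice, with Cd4 the most abundant. Genes of pancreas and liver, other organs of the abdomen, summed to at most 1.77 CPM in any mouse, and Cpa1, a pancreatic enzyme, had 0 counts in all 8. Total splenocytes hold many cell types, so that fewer cells of a type and less RNA per cell cannot be told apart.

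For 0 of the 6 genes did tRA and control mice differ by more than the spread between mice. In the quasi-likelihood fit of edgeR, with p-values adjusted over 16484 genes by Benjamini-Hochberg, a false discovery rate (FDR) under 0.1 was reached by 0 of the 6 genes and by 0 of all genes tested (0%). At an unadjusted p under 0.05 there were 0 of the 6 and 6.49% of all genes, which is 1070 genes. DESeq2 gave an FDR under 0.1 to 0 of the 6 and to 27 of the 13625 genes for which it gave an FDR (0.198%), and limma-voom to 0 of the 6 and to 1 gene of all. For 0 of the 6 genes did the 4 tRA mice all lie on a single side of the 4 control mice, as they did for 3.54% of the genes tested. Fcgr1, Fcgr2b and Fcgr3 had log2 fold changes above 0 and Fcgr4, Fcer1g and Fcgrt below 0, between -0.21 and 0.066. Their median was -0.057, and that of all genes tested was 0.0014. Missing the threshold does not show that the groups were alike, and the 95% interval of each gene is given with its values.

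**Figure D1:**
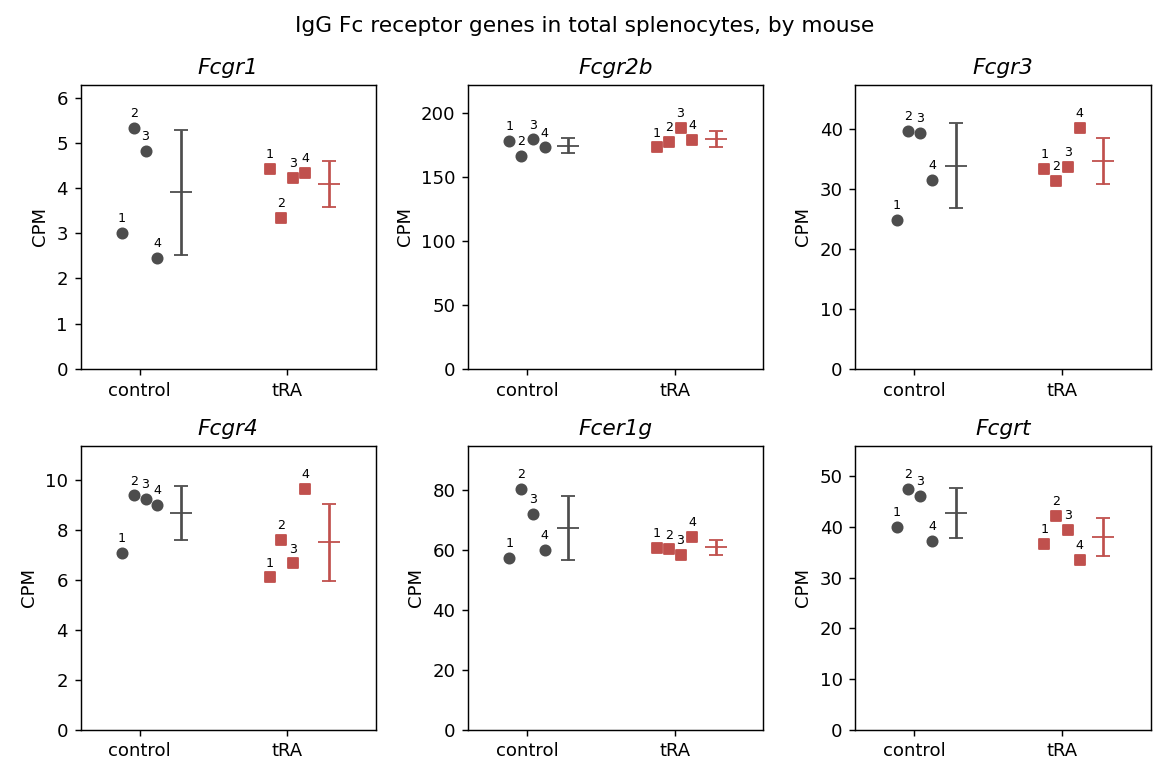
Level in CPM (vertical axes, each starting at 0) of the 6 IgG Fc receptor genes in each of 4 control mice (circles) and 4 tRA mice (squares), numbered by replicate, with the mean ± SD beside the points. The groups overlapped for each gene, and relative to its mean Fcgr2b had the narrowest spread, between 167 and 188 CPM over the 8 mice (SD 3.34% of the mean in control mice and 3.51% in tRA mice).

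Fcgr2b, the inhibitory receptor, was the most abundant per kb of the 4 classical receptors and varied least relative to its mean. Its level was 179, 167, 179.6 and 173 CPM in control mice 1 to 4 and 173, 178, 188 and 179 CPM in tRA mice 1 to 4. The lowest level was that of a control mouse and the highest that of a tRA mouse, and the remaining 6 mice lay between 173 and 179.6 CPM. The mean was 175 ± 5.84 CPM (SD, n = 4) in control mice and 179.7 ± 6.32 CPM (SD, n = 4) in tRA mice, a log2 fold change of 0.041 (SE 0.058, FDR 0.896 from edgeR). The exact permutation test over the mice (two-sided) gave p = 0.400, where 4 mice against 4 can give no less than 0.0286. The 95% interval of the change, from 0.942-fold to 1.12-fold, was the narrowest of the 6 genes. Fcgr2b rested on 5361 to 6948 counts per mouse. With each mouse left out its log2 fold change stayed above 0, the lowest being 0.017 without tRA mouse 3 and the highest 0.058 without tRA mouse 1.

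Fcgr1 encodes the high-affinity receptor of macrophages, monocytes and some dendritic cells, and it was the least abundant of the 6. Its level was 3.00, 5.32, 4.83 and 2.46 CPM in control mice 1 to 4, which is between 76 and 171 counts, and 4.43, 3.34, 4.23 and 4.34 CPM in tRA mice 1 to 4, which is between 106 and 156 counts. The control mice thus held both the lowest and the highest pairs of values, and the tRA mice lay within their range. The means were 3.90 ± 1.39 and 4.08 ± 0.504 CPM (SD, n = 4 each), a log2 fold change of 0.066 (SE 0.24, FDR 0.970 from edgeR, exact permutation p = 0.714). The 95% interval ran from 0.726-fold to 1.51-fold, and the sign depended on which mouse was included, with a log2 fold change of -0.099 without control replicate 4 and 0.25 without control replicate 2.

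Fcgr3 encodes the low-affinity activating receptor of natural killer (NK) cells, macrophages and neutrophils. Its level was 24.8, 39.6, 39.4 and 31.6 CPM in control mice 1 to 4 and 33.3, 31.3, 33.7 and 40.1 CPM in tRA mice 1 to 4. Control mouse 1 was the lowest of the 8 and tRA mouse 4 the highest, and the other mice of both groups were intermixed. The means were 33.8 ± 7.07 and 34.6 ± 3.81 CPM (SD, n = 4 each), a log2 fold change of 0.033 (SE 0.14, FDR 0.977 from edgeR, exact permutation p = 0.714) with a 95% interval from 0.822-fold to 1.27-fold. Its direction also turned, with a log2 fold change of -0.090 without control replicate 1, -0.046 without tRA replicate 4 and 0.12 without control replicate 2.

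Fcgr4 encodes an activating receptor of neutrophils, macrophages and patrolling monocytes. Its level was 7.09, 9.40, 9.25 and 9.02 CPM in control mice 1 to 4 and 6.11, 7.62, 6.67 and 9.66 CPM in tRA mice 1 to 4. The highest of the 8 mice, tRA mouse 4, and the lowest pair, tRA mice 1 and 3, were all in the tRA group. The means were 8.69 ± 1.08 and 7.51 ± 1.56 CPM (SD, n = 4 each), and the log2 fold change of -0.21 was the largest of the 6 genes in size, with an interval from 0.677-fold to 1.10-fold (SE 0.16, FDR 0.816 from edgeR, exact permutation p = 0.286). Without tRA replicate 4 it was -0.35, with an unadjusted p of 0.0393 and an FDR of 0.999 (edgeR), and without tRA replicate 1 it was -0.12.

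Genes of neutrophil precursors were examined beside Fcgr4, which neutrophils express. All 9 had a negative log2 fold change, with a median of -0.88, and 6 of them were lower in each tRA mouse than in each control mouse. Their summed level was 544, 683, 718 and 616 CPM in control mice 1 to 4 and 243, 302, 330.2 and 479 CPM in tRA mice 1 to 4, with Ngp, a granule protein, the most abundant and no marker at 0. The order of the tRA mice differed between the sum and Fcgr4 only in the place of mice 2 and 3, tRA mouse 4 being the highest for both. All 9 genes had an unadjusted p under 0.05 in edgeR, where 0 passed an FDR under 0.1. DESeq2 gave an FDR under 0.1 to 4 of the 9, all lower in tRA mice, namely Camp (FDR 3.38e-10), Ngp (0.00112), Ltf (0.00870) and Lcn2 (0.0888), and limma-voom to Camp alone (0.0533), of which Camp, Ltf and Lcn2 were named after their values were seen. Of 8 genes of mature neutrophils, 3 were higher and 5 lower in tRA mice, with no marker at 0. Their sums were 555, 921, 724 and 708 CPM in the control mice and 657, 597, 469.9 and 838 CPM in the tRA mice. Csf3r was the most abundant over all 8 mice and in tRA mice (mean 282 CPM, against 189 CPM for S100a9). In control mice S100a9 was the most abundant (mean 283 CPM, against 237 CPM for Csf3r). The 3 mature neutrophil genes with an unadjusted p under 0.05 were all lower in tRA mice, namely S100a8 (log2 fold change -0.63), S100a9 (-0.58) and Ly6g (-0.77), which were named after their values were seen, and the median of the 8 genes was -0.27. The part of neutrophil number in the values of Fcgr4 was not tested.

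Fcer1g, the signaling chain that the activating receptors share, was measured at 57.2, 80.4, 72.0 and 60.2 CPM in control mice 1 to 4 and at 60.8, 60.2, 58.4 and 64.3 CPM in tRA mice 1 to 4. The tRA mice fell in a narrow band at the lower end of the control range, and control mice 2 and 3 stood above all others. The means were 67.5 ± 10.7 and 60.9 ± 2.48 CPM (SD, n = 4 each), a log2 fold change of -0.15 (SE 0.10, FDR 0.804 from edgeR, exact permutation p = 0.400) with an interval from 0.772-fold to 1.06-fold. It was -0.051 without control replicate 2 and -0.22 without control replicate 1.

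Fcgrt, the neonatal receptor, was measured at 39.9, 47.5, 46.1 and 37.2 CPM in control mice 1 to 4 and at 36.6, 42.2, 39.4 and 33.4 CPM in tRA mice 1 to 4. The lowest pair of values belonged to tRA mice and the highest pair to control mice, with the other values intermixed. The means were 42.7 ± 4.91 and 37.9 ± 3.76 CPM (SD, n = 4 each), a log2 fold change of -0.17 (SE 0.10, FDR 0.792 from edgeR, exact permutation p = 0.171) with an interval from 0.762-fold to 1.04-fold. Its unadjusted p of 0.117 was the lowest of the 6 genes and ranked 2433 of the 16484 genes tested. Without control replicate 4 the log2 fold change was -0.23, with an unadjusted p of 0.0447 and an FDR of 0.759 (edgeR), and without tRA replicate 4 it was -0.12.

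Control mice 2 and 3 recurred at the upper end of most of these genes. They gave the highest pair of the 8 values for Fcgr1, Fcer1g and Fcgrt, and they were next after tRA mouse 4 for Fcgr3 and Fcgr4. For Fcgr2b, in contrast, control mouse 2 was the lowest of all, 5.80% below the mean of the 8 mice, while it lay 33.3% above that mean for Fcgr1 and 25.2% above it for Fcer1g. Red pulp macrophage genes did not follow the same order, with sums over 12 genes of 851, 1059.8, 782 and 643 CPM in control mice 1 to 4 and 573, 805, 949 and 732 CPM in tRA mice 1 to 4, Hmox1 being the most abundant and no marker at 0. Of these 12 macrophage genes 2 were higher and 10 lower in tRA mice, with a median log2 fold change of -0.10 and 0 at an unadjusted p under 0.05, and their part in the values of Fcer1g and Fcgrt was not tested. NK cell genes gave the highest pair of sums to control mice 2 and 3, over 6 genes 287, 366, 436 and 291 CPM in control mice 1 to 4 and 342, 329, 337 and 298 CPM in tRA mice 1 to 4, Gzma being the most abundant and no marker at 0. Of these 6 NK cell genes 1 was higher and 5 lower in tRA mice, with a median of -0.056 and 0 at an unadjusted p under 0.05, and the part of NK cell number in the values of the receptor genes was not tested. Neutrophil precursor and platelet genes also had their highest pair of sums in control mice 2 and 3. Classical monocyte genes put control mice 2 and 3 above the other control mice but had tRA mouse 4 between them, with sums over 6 genes of 143, 223, 208 and 165 CPM in control mice 1 to 4 and 182, 184, 205 and 218 CPM in tRA mice 1 to 4, Ms4a4c being the most abundant and no marker at 0. Of these 6 monocyte genes 4 were higher and 2 lower in tRA mice, with a median of 0.18 and 0 at an unadjusted p under 0.05. Vcan, named after its values were seen, was higher in each tRA mouse than in each control mouse (log2 fold change 0.67). The part of monocyte number was not tested. Mature neutrophil, patrolling monocyte, erythroid and endothelial genes also put control mice 2 and 3 above the other control mice. Conventional dendritic cell genes had sums of 130, 156, 141 and 193 CPM in control mice 1 to 4 and 124, 146, 163 and 154 CPM in tRA mice 1 to 4. Basophil and mast cell genes had sums of 24.7, 35.6, 26.9 and 38.2 CPM in control mice and 44.2, 33.3, 21.5 and 37.5 CPM in tRA mice. Both of these lists had their highest control sum in mouse 4. The part of all these cells was not tested.

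Levels of different genes were compared as CPM per kb of merged exons. In this scale the mean over the 8 mice was 73.5 for Fcer1g, 30.6 for Fcgr2b, 19.7 for Fcgr3, 19.2 for Fcgrt, 6.45 for Fcgr4 and 1.54 for Fcgr1. Fcer1g exceeded Fcgr2b in 8 of 8 mice, with the lowest mouse for Fcer1g at 65.5 and the highest for Fcgr2b at 32.5, and it stood above 96.6% of the genes tested. Fcgr2b exceeded Fcgr3 in 8 of 8 mice. Fcgr3 and Fcgrt did not differ beyond their spread, since Fcgr3 was the higher in 6 of 8 mice and their ranges, from 14.3 to 23.1 and from 15.9 to 22.6, overlapped. Fcgrt exceeded Fcgr4, and Fcgr4 exceeded Fcgr1, in 8 of 8 mice, and Fcgr1 stood above 32.6% of the genes tested. With the length of the longest transcript in place of merged exons, Fcgr2b lay between 47.1 and 53.2 over the 8 mice, as its merged exons span 5.79 kb and its longest transcript 3.54 kb, and the order of the 6 genes was the same.

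Each activating receptor was set against the inhibitory receptor by the log2 ratio of their counts per kb within a mouse. For Fcgr3 over Fcgr2b it was -0.65 ± 0.34 (SD, n = 4) in control mice and -0.64 ± 0.16 in tRA mice, from -1.11 in control mouse 1 to -0.34 in control mouse 2. For Fcgr1 over Fcgr2b it was -4.39 ± 0.55 in control mice and -4.31 ± 0.20 in tRA mice. For Fcgr4 over Fcgr2b it was -2.45, -1.95, -2.08 and -2.06 in control mice 1 to 4 and -2.62, -2.34, -2.62 and -2.01 in tRA mice 1 to 4, a difference between the means of -0.26. The groups overlapped for all 3 ratios, and in each mouse the activating receptor was below Fcgr2b per kb. Fcgr2b is also a receptor of B cells, so in total splenocytes these ratios do not give the balance on any single cell type. The part of cell numbers in them was not tested.

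Fcgr2b and Fcgr3, which lie on either side of Fcgr4, share part of their sequence, so that reads from the shared part can be split or dropped by the counting. Of the distinct 50-base windows in the annotated transcripts of Fcgr3, 166 of 1733 (9.58%) also occur in Fcgr2b. Of those of Fcgr2b, 166 of 5685 (2.92%) occur in Fcgr3 and 249 (4.38%) in any other gene, Fcgr3 included. In windows of 100 bases the share of Fcgr3 was 2.54%, and that of Fcgr2b was 0.753% with Fcgr3 and 1.40% with any other gene. Fcgr1, Fcgr4, Fcer1g and Fcgrt had 0 shared windows at both lengths. The longest identical stretch of 129 bases is printed because reads inside it cannot be assigned to either gene by sequence alone, with 102 bases of the upstream exon in lower case and 27 bases of the next exon in capitals.
Fcgr2b and Fcgr3 shared stretch: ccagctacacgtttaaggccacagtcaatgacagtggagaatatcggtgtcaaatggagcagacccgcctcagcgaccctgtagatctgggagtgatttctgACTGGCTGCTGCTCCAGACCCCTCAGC
In most of the transcripts that hold it, it is coding sequence of the extracellular part, on the minus strand of GRCm38, at chr1:170966674-170968081 in Fcgr2b and chr1:171054167-171057792 in Fcgr3 with the intron between both exons included. It is found in 5 of the 7 annotated transcripts of Fcgr2b and in 3 of the 4 of Fcgr3, and it is noncoding in 1 of them for each gene. The values of Fcgr3 are thus less certain than those of the genes without shared windows.

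Fcgr2b, Fcgr4, Fcgr3 and Fcer1g lie in this order on chromosome 1, within chr1:170958617-171234365, while Fcgr1 (ENSMUSG00000015947) lies at chr3:96282909-96293969 and Fcgrt (ENSMUSG00000003420) at chr7:45092990-45103851 (GRCm38). On chromosome 1, Fcgr2b (ENSMUSG00000026656) spans chr1:170958617-170976547, Fcgr4 (ENSMUSG00000059089) chr1:171018920-171029761, Fcgr3 (ENSMUSG00000059498) chr1:171051174-171064935 and Fcer1g (ENSMUSG00000058715) chr1:171229572-171234365. Fcgr4 is on the plus strand and the other 5 genes are on the minus strand. The chromosome 1 interval holds 17 annotated genes, of which 11 were tested, the 4 receptor genes included. Of the 11 genes, 3 were higher and 8 lower in tRA mice, with a median log2 fold change of -0.12, and 0 passed an FDR under 0.1 or an unadjusted p under 0.05. Among the neighbors, Sdhc, a subunit of succinate dehydrogenase, had the lowest p, at 31.5 ± 5.85 CPM in control mice and 26.5 ± 2.94 CPM in tRA mice (SD, n = 4 each, log2 fold change -0.25, FDR 0.780 from edgeR). Next was Pcp4l1, at 0.431 ± 0.258 and 0.258 ± 0.101 CPM (log2 fold change -0.72, FDR 0.795). Gm38204, an antisense gene that overlaps the start of Fcgr2b, was at 0.350 ± 0.0909 and 0.345 ± 0.0675 CPM, a small fraction of the level of Fcgr2b, and whether the counting used the strand is not given in the sources used here.

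Receptors for other antibody classes and Fc-like receptors were then examined. Of the 13 genes listed, 10 were tested, 5 higher and 5 lower in tRA mice, with a median log2 fold change of 0.023 against 0.0014 for all genes tested, and 0 had an unadjusted p under 0.05. The median ranged from -0.0090 with control mouse 4 left out to 0.040 with control mouse 2 left out, and it was also below 0 with control mouse 1 left out. The most abundant per kb was Fcmr, the IgM receptor, at 778 ± 37.7 CPM in control mice and 774 ± 54.3 CPM in tRA mice (SD, n = 4 each). The pair with the lowest p were Fcrl5, an inhibitory Fc receptor-like protein of B cells, at 21.2 ± 3.70 and 17.9 ± 2.24 CPM (log2 fold change -0.24, FDR 0.789 from edgeR), and Ms4a2, the β chain of the IgE receptor, at 0.671 ± 0.0819 and 0.928 ± 0.291 CPM (log2 fold change 0.47, FDR 0.792). The α chain of that receptor, Fcer1a, had too few counts to be tested.

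Of 10 genes of related adaptors and of other receptors that use the common γ chain, 8 were tested, 5 higher and 3 lower, with a median of 0.063 that turned to -0.0083 without control mouse 1 and came to 0.14 without control mouse 2. Tyrobp, the related adaptor DAP12, was the most abundant per kb, at 111 ± 20.5 CPM in control mice and 106 ± 6.06 CPM in tRA mice (SD, n = 4 each). Like Fcer1g, it had its lowest and its highest level in control mice 1 and 2. Hcst, the adaptor DAP10, which has no ITAM, had a log2 fold change of -0.22 (FDR 0.780 from edgeR) and Ncr1, an activating receptor of NK cells, one of 0.27 (FDR 0.792), and 0 of the 8 genes had an unadjusted p under 0.05.

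Downstream of the ITAM, 26 of 26 kinases and adaptors were tested, 14 higher and 12 lower, with a median of 0.018 that turned to -0.025 without control mouse 4 and came to 0.038 without control mouse 2. The single gene with an unadjusted p under 0.05 was Lcp2, the adaptor SLP-76, at 180.0, 190.4, 202 and 208 CPM in control mice 1 to 4 and 218, 210.1, 224 and 222 CPM in tRA mice 1 to 4. Each tRA mouse was above each control mouse, although the log2 fold change of 0.17 (SE 0.065) did not pass the adjustment (FDR 0.757 from edgeR). Plcg1 had the next lowest p, with a log2 fold change of 0.13 (FDR 0.791), and Pik3cd, the most abundant per kb, was at 818 ± 47.7 and 833 ± 30.1 CPM (SD, n = 4 each). Syk, the kinase that binds the phosphorylated ITAM and the gene of the list with the highest CPM, had a log2 fold change of 0.032 (FDR 0.948). T cell genes, with 5 of 6 higher in tRA mice and a median of 0.13, had sums of 830, 871, 984 and 1039 CPM in control mice 1 to 4 and 990.0, 998, 1064 and 1027 CPM in tRA mice 1 to 4, Cd4 being the most abundant and no marker at 0. The control mice had the same order for this sum, Lcp2 and Plcg1. In tRA mice the order differed between the sum, Lcp2 and Plcg1, with mouse 3 the highest for each. Plcg1 was at 198, 201, 219 and 241 CPM in control mice 1 to 4 and 238, 222, 248 and 236 CPM in tRA mice 1 to 4. The part of T cell number in the values of Lcp2 and Plcg1 was not tested.

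The inhibitory arm includes the phosphatases that ITIM receptors recruit. Of 13 phosphatases and inhibitors of ITAM signaling, 6 were higher and 7 lower in tRA mice with a median of -0.0022, and 0 had an unadjusted p under 0.05. With a mouse left out that median lay between -0.016 (control mouse 2) and 0.012 (tRA mouse 4) and was above 0 in 5 of 8 cases. Inpp5d, the phosphatase SHIP that the ITIM of Fcgr2b recruits, was at 327 ± 16.0 CPM in control mice and 339 ± 18.6 CPM in tRA mice (SD, n = 4 each). Ptpn6, the phosphatase SHP-1, was the most abundant per kb, at 843 ± 54.3 and 853 ± 33.9 CPM, and the lowest p belonged to the adaptor Dok3 (log2 fold change -0.16, FDR 0.782 from edgeR) and then to Dok1 (-0.080, FDR 0.823). Of 9 other ITIM receptors 7 were higher and 2 lower, with a median of 0.020 and 0 genes at an unadjusted p under 0.05, and with a mouse left out it lay between -0.036 (control mouse 1) and 0.13 (control mouse 2) and was below 0 in 5 of 8 cases. Among them were Cd22, the most abundant per kb (log2 fold change 0.071), Cd72 (-0.12) and Cd300a (0.12).

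Genes of the phagocytic cup and the NADPH oxidase, which act after receptor engagement, numbered 18 of 18 tested, 10 higher and 8 lower, with a median of 0.0068 that lay between -0.033 (control mouse 3) and 0.019 (control mouse 2) with a mouse left out and was below 0 in 6 of 8 cases. Cyba, the small subunit of the oxidase, was the single gene with an unadjusted p under 0.05, at 178, 180.1, 189 and 164 CPM in control mice 1 to 4 and 165, 146, 138 and 144 CPM in tRA mice 1 to 4. The groups overlapped between control mouse 4 and tRA mouse 1, and the log2 fold change of -0.26 (SE 0.073) had an FDR of 0.757 from edgeR. Arpc3 had the next lowest p (log2 fold change -0.20, FDR 0.776), and Coro1a was the most abundant per kb (log2 fold change -0.070). For the oxidase subunit Ncf4 each tRA mouse was below each control mouse, at 194 ± 2.95 and 181 ± 4.61 CPM (SD, n = 4 each), with a log2 fold change of -0.097 and an FDR of 0.787. Ncf4, Inpp5d, Syk, Fcer1a and Gm38204 were named after their values were seen.

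The partner of Fcgrt and genes of endosomal sorting gave 3 higher and 4 lower of 7 tested, with a median of -0.050 that turned to 0.0033 without tRA mouse 3 and came to -0.067 without tRA mouse 2. B2m, which encodes β2-microglobulin, was at 1506 ± 70.5 CPM in control mice and 1455 ± 81.8 CPM in tRA mice (SD, n = 4 each), a log2 fold change of -0.050 (FDR 0.906 from edgeR). Snx4, a sorting nexin of the recycling pathway, was at 79.9, 79.5, 73.1 and 73.8 CPM in control mice 1 to 4 and 84.1, 83.9, 82.9 and 88.2 CPM in tRA mice 1 to 4. Each tRA mouse was above each control mouse, and it was the single gene of the 7 with an unadjusted p under 0.05 (log2 fold change 0.15, SE 0.060, FDR 0.757). Rab7 had a log2 fold change of 0.11 (FDR 0.786).

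For the ligand, the 4 IgG heavy chain constant genes of the reference were tested, 2 higher and 2 lower, with a median of -0.040 that turned to 0.088 with tRA mouse 1 left out, was also above 0 with control mouse 4 left out, and came to -0.23 with tRA mouse 3 left out. Their summed level was 103, 115, 141 and 166 CPM in control mice 1 to 4 and 91.3, 118, 167 and 125 CPM in tRA mice 1 to 4. The spread within either group was larger than the difference between them. Ighg3 was the most abundant per kb, at 83.2 ± 16.8 CPM in control mice and 77.4 ± 14.4 CPM in tRA mice (SD, n = 4 each, log2 fold change -0.10, FDR 0.904 from edgeR), and Ighg2c had a log2 fold change of -0.29 (FDR 0.888). Balb/c mice carry the Ighg2a allele where the reference genome carries Ighg2c, so that the values of Ighg2c are uncertain. Among plasma cell genes, 3 of 6 were higher and 3 lower, with sums of 984, 949.8, 949.7 and 1149.5 CPM in control mice 1 to 4 and 870.3, 1003, 746 and 756 CPM in tRA mice 1 to 4, Jchain being the most abundant and no marker at 0. Of these 6 genes Sdc1 and Tnfrsf17 were lower in each tRA mouse than in each control mouse (log2 fold changes -0.17 and -0.78, named after their values were seen). Tnfrsf17 and Jchain (log2 fold change -0.46) had an unadjusted p under 0.05, with an FDR of 0.757 from edgeR for both, and the part of plasma cell number in the heavy chain values was not tested.

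Of 14 regulators of receptor expression 4 were higher and 10 lower in tRA mice, with a median of -0.082. With tRA mouse 3 left out, the median came to -0.031, and with tRA mouse 1 left out to -0.15. Interferon-γ raises Fcgr1 and Fcgr4 in myeloid cells, and its gene Ifng was at 15.8, 14.8, 17.9 and 14.1 CPM in control mice 1 to 4 and 15.2, 10.5, 7.75 and 9.20 CPM in tRA mice 1 to 4. Of the tRA mice, mouse 1 lay within the control range and the other 3 below it (log2 fold change -0.55, SE 0.18, unadjusted p = 0.0125, FDR 0.757 from edgeR). Spi1, a transcription factor that myeloid Fc receptor genes depend on, was at 109.9, 107, 96.2 and 94.2 CPM in control mice 1 to 4 and 96.6, 88.1, 84.0 and 91.6 CPM in tRA mice 1 to 4. Here too tRA mouse 1 alone lay within the control range (log2 fold change -0.18, SE 0.074, unadjusted p = 0.0350, FDR 0.757). These were the 2 genes of the list with an unadjusted p under 0.05, and Irf1, the most abundant per kb, had a log2 fold change of -0.066 (FDR 0.901).

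Immediate early and heat shock genes, which respond to the handling of cells, had a negative log2 fold change for 10 of 10 genes, with a median of -0.64, and 5 of them were lower in each tRA mouse than in each control mouse. By edgeR 6 of the 10 genes had an unadjusted p under 0.05 and 0 an FDR under 0.1, and DESeq2 gave an FDR under 0.1 to Egr1 (0.0792) and Jun (0.0976), named after their values were seen, and limma-voom to 0. Within each group the mice had the same order for the sum of the 10 genes as for Ifng. Their summed level was 17079, 16011, 17309.9 and 14139 CPM in control mice 1 to 4. In tRA mice 1 to 4 it was 14364, 12388, 5839 and 8459 CPM, and no marker was at 0. Fos was the most abundant over both groups together and in tRA mice (mean 2216 CPM, against 2027 CPM for Fosb). In control mice Fosb, named after its values were seen, was the most abundant (mean 3319 CPM, against 3184 CPM for Fos). The lowest level of Ifng and the lowest sum of the 10 genes were both in tRA mouse 3, although Egr1 was lowest in tRA mouse 4. The part of these 10 genes in the values of Ifng, Spi1 and the receptors was not tested.

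**Figure D2:**
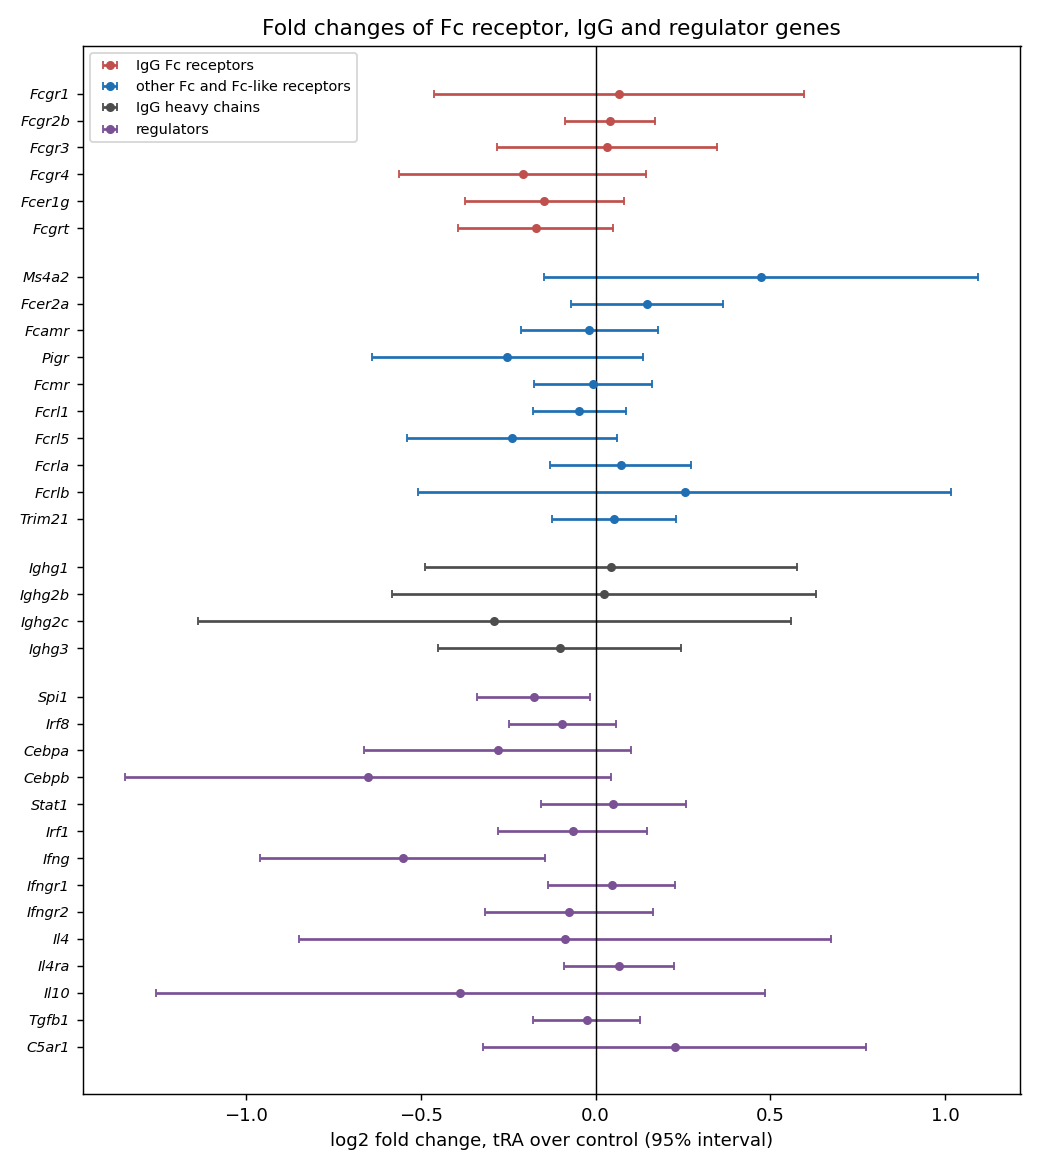
Log2 fold change of tRA over control (horizontal axis) with its 95% interval from edgeR for the IgG Fc receptor genes, the other Fc and Fc-like receptors tested, the IgG heavy chain genes and the regulators (vertical axis). The intervals of all 6 IgG Fc receptor genes include 0, from -0.56 to 0.14 for Fcgr4 and from -0.086 to 0.17 for Fcgr2b.

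The windows from 250 bases before to 50 bases after the gene start (RefSeq, GRCm38.p6) were searched on both strands for sites of the regulators and of the receptors of tRA. For the 6 genes 7 windows were found, since Fcgr3 has 2 starts. The hexamer AGGTCA, bound by retinoic acid receptors as a direct repeat, was repeated after 1, 2 or 5 free bases in 0 of the 7 windows, as against 0.04%, 0.009% and 0.009% of 32851 windows of all genes. Only exact repeats were searched, and they are so rare that 0 of 7 windows cannot tell whether these genes lack such sites. A single AGGTCA, which each such repeat also holds, was in the window of Fcgr2b and in 16.3% of all windows. The related hexamer GGTTCA was in both windows of Fcgr3, which overlap, and in 10.4% of all windows. The interferon-γ activated site TTCNNNGAA was in the window of Fcgr1 and in 8.30% of all windows, and GAGGAAGT, a site of the factor that Spi1 encodes, was in that of Fcgr4 and in 3.20% of all. Both windows are printed as those of the activating receptors that hold a site of a regulator named above, with the match in capitals, at chr3:96293920-96294219 (minus strand) for Fcgr1 and at chr1:171018676-171018975 (plus strand) for Fcgr4, where the match is on the opposite strand.
Fcgr1: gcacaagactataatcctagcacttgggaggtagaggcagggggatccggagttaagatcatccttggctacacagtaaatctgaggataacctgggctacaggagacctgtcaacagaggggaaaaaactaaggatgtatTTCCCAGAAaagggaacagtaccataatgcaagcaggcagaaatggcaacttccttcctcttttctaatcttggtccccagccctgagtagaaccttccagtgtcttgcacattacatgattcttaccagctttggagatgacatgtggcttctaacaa
Fcgr4: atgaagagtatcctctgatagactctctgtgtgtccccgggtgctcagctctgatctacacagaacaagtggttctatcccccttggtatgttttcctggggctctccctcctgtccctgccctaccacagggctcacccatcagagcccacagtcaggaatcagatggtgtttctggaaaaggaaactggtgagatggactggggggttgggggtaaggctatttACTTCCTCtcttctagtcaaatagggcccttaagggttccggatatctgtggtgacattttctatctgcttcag
A match describes the letters of the window, and binding was not measured.

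The genes whose pattern over the 8 mice was most like each receptor gene were named by Pearson's r of log2 CPM among genes with at least 10 CPM on average. They describe these 8 mice, were picked as the highest of about 9110 genes each, and share the libraries with the receptor genes. For Fcgr3 they were Lyz2, the lysozyme of myeloid cells (r = 0.955, Spearman's rho = 0.857), Pygl (r = 0.950, rho = 0.833) and Card9, an adaptor downstream of Syk (r = 0.947, rho = 0.857). For Fcgr4 they were Hk2 (r = 0.958, rho = 0.929), Cd177, a surface protein of neutrophils (r = 0.936, rho = 0.857), and Ttc37 (r = 0.935, rho = 0.929). For Fcer1g they were Map7d1 (r = 0.957, rho = 0.762), Ifitm2 (r = 0.933, rho = 0.952) and Ifitm6 (r = 0.918, rho = 0.738). Without control mice 2 and 3, the mice farthest from the median of Fcer1g, r was 0.572 for Map7d1, 0.874 for Ifitm2 and 0.506 for Ifitm6, so that the likeness of Map7d1 and Ifitm6 rests on those mice. For Fcgrt they included Dbp (r = 0.950, rho = 0.976) and Tbx21, a transcription factor of NK and T cells (r = 0.949, rho = 0.952). For Fcgr1 they were Dctn2, Igfbp4 and Elmod3 (r from 0.957 to 0.962, rho from 0.905 to 0.952). For Fcgr2b they were Letmd1, Ankrd13d and Zcchc17 (r from 0.948 to 0.956, rho from 0.881 to 0.952). For the genes named with the 5 receptor genes other than Fcer1g, r without the 2 farthest mice was between 0.736 (Fcgr2b and Zcchc17) and 0.962 (Fcgrt and Dbp).

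Markers of the remaining cell types that total splenocytes could hold were given for completeness. Patrolling monocyte genes had 2 of 6 higher and 4 lower (median log2 fold change -0.085), with sums of 382, 479, 505 and 459 CPM in control mice 1 to 4 and 419.6, 443, 545 and 546 CPM in tRA mice 1 to 4 and no marker at 0. Spn, the most abundant, was their single gene with an unadjusted p under 0.05 and was higher in tRA mice (log2 fold change 0.28, FDR 0.757 from edgeR). The sums rest largely on Spn, at a mean of 242 of 456 CPM in control mice and 293 of 488 CPM in tRA mice. Whether Spn came from patrolling monocytes was not tested. Conventional dendritic cell genes had 2 of 7 higher and 5 lower (-0.15, Itgax most abundant), with 1 higher gene at an unadjusted p under 0.05, Cd209a (log2 fold change 0.27), named after its values were seen. Basophil and mast cell genes had 4 of 5 higher (0.10, Hdc most abundant), with 1 higher gene at an unadjusted p under 0.05, Cd200r3 (log2 fold change 1.11), named after its values were seen. Platelet genes had 1 of 3 tested higher (-0.095, Itga2b most abundant), with sums of 6.96, 7.19, 7.95 and 7.17 CPM in control mice 1 to 4 and 7.18, 6.11, 6.83 and 6.14 CPM in tRA mice 1 to 4. Endothelial genes had 3 of 4 tested higher (0.14, Stab2 most abundant), with sums of 15.0, 27.9, 30.8 and 17.6 CPM in control mice 1 to 4 and 19.2, 21.03, 39.3 and 25.4 CPM in tRA mice 1 to 4. The groups overlapped for both of these sums. Erythroid genes had 4 of 5 higher (0.43, Hbb-bs most abundant), with 0 at an unadjusted p under 0.05. They varied widely between mice, with sums of 726, 1405, 2168 and 452 CPM in control mice 1 to 4 and 2102, 569, 3261 and 538 CPM in tRA mice 1 to 4, and the groups overlapped.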

How the data were processed

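Counts per gene were deposited by the authors without normalization for total splenocytes of 8 mice. The study's methods name trimming with ea-utils and Btrim, alignment with Bowtie2 and Tophat2 and counting with HTSeq, whereas the submitters' processing notes list STAR 2.5.2b, featureCounts 1.5.1 and DESeq2 1.26.0 with GRCm38, and which of them made the counts is not settled here. Read length and strand setting are not given in the sources used here. A deposited table of the authors' own comparison, with fold changes and p-values, was not used.

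Of 51826 gene identifiers, 51633 were matched to GENCODE M21. In R 4.3.3 with edgeR 4.0.16, genes were kept by filterByExpr (minimum of 10 counts), normalized by TMM and compared by the quasi-likelihood test over 16484 genes, with an FDR under 0.1 as the threshold. The biological coefficient of variation was 0.152. Chi-square per degree of freedom between mice of the same group was 14.1 to 72.5, above sampling noise for each such pair. The fits were tested on simulated data. Alternatives were DESeq2 1.42.0, limma-voom (limma 3.58.1), other normalizations and filters, the replicate number as a block, each mouse left out, transcript length and windows of 100 bases. Proteins were not compared here. The figures were drawn in Python 3.11.15 with matplotlib 3.10.9.

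Members, gene lists, tests and alternatives were chosen with earlier results of these data known. The genes named were the 6 receptor genes, the 3 genes most like each (1 is not reported here), the 2 genes with the lowest p and the most abundant per kb of each gene list, the most abundant of each marker list with those at 0 counts, and the 2 neighbors with the lowest p.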

Additional observations from a re-analysis of the deposited data

Results flagged for a closer look

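A single mouse stood far from the remaining 3 in 4 of the 62 sets of values looked at, and about 3.1 such sets come by chance. Fcgr4 in control mice was 7.09 CPM in mouse 1, against 9.02 to 9.40 CPM in the other 3. In tRA mice, mouse 3 was the lowest for the summed level of related adaptors and other receptors that use the common γ chain, at 367 CPM with the highest mouse at 393 CPM. The same mouse was the lowest for the summed level of B2m and endosomal sorting genes, at 1688 CPM with the highest at 1883 CPM. The summed level of pancreas and liver genes was 1.77 CPM in tRA mouse 1 and no more than 0.380 CPM in the other tRA mice.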

How the results depend on the processing

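Over 15 alternatives the direction held in 86 of 90 fold changes of the 6 receptor genes, and 0 of the 90 had an FDR under 0.1. Fcgr2b, Fcgr4, Fcer1g and Fcgrt kept their direction in all 15, while Fcgr1 turned to -0.042 without control replicate 1 and -0.099 without control replicate 4, and Fcgr3 to -0.090 without control replicate 1 and -0.046 without tRA replicate 4. With each mouse left out, the log2 fold change ranged from -0.099 to 0.25 for Fcgr1, 0.017 to 0.058 for Fcgr2b, -0.090 to 0.12 for Fcgr3, -0.35 to -0.12 for Fcgr4, -0.22 to -0.051 for Fcer1g and -0.23 to -0.12 for Fcgrt. The number of genes with an FDR under 0.1 came to 27 by DESeq2, to 6 when genes of low counts were kept, to 1 by limma-voom and to 0 to 3 with each mouse left out (3 without tRA replicate 4), and the cause was not tested. The count at an unadjusted p under 0.05 ran from 657 without tRA replicate 4 to 2105 without tRA replicate 1. At 100 bases the windows shared with any other gene came to 1.40% for Fcgr2b (0.753% with Fcgr3) and to 2.54% for Fcgr3. Deviations of mice with the same number correlated at 0.157, -0.0229, -0.0140 and 0.259, which does not pair them, and with the replicate block edgeR gave 0 genes at an FDR under 0.1 and 1200 at an unadjusted p under 0.05. With that block Fcgrt had an unadjusted p of 0.0372 and an FDR of 0.677. Of 135 list medians, 129 moved by less than the SD between mice. Leaving out 1 of 4 mice mostly moves a median by less than that SD, so this count says little on direction. The median of the phagocytic cup and NADPH oxidase genes changed sign in 6 of the 8 cases with a mouse left out. Fcgr1 had the lowest counts of the 6 genes, 76 to 171 per mouse, and an SD between control mice of 35.5% of the mean.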
